A study of Homo sapiens with 2 samples.

Results

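The regions described here are the SOX9 peaks of chromosome 8 in VCaP cells, 287 of the 7547 peaks in the SOX9 list (3.80%, exact Clopper-Pearson 95% interval 3.38 to 4.26%). They comprise all peaks that the list places on this chromosome. Each was assigned to the short arm (8p) when its centre lay below 45 Mb in hg18 and to the long arm (8q) otherwise, which gave 68 and 219 peaks. VCaP is an established human cell line of prostate cancer, positive for the TMPRSS2-ERG fusion and with high basal SOX9. Cells were grown in DMEM with serum. Chromatin fixed with formaldehyde was either immunoprecipitated with the SOX9 antibody Millipore AB5535 (1 library) or kept as input without antibody (1 library). No treatment or genotype differed between the libraries, and both come from the same single cell line.

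SOX9 is a transcription factor of the SOX family that binds DNA through its HMG box, and in prostate cancer it has been studied for its part in WNT signalling. A chromatin immunoprecipitation peak is a stretch of the genome where fragments recovered with the antibody pile up above their surroundings. Chromosome 8 is of particular interest in prostate cancer, where loss of 8p and gain of 8q, which carries the oncogene MYC, are common. MYC encodes a transcription factor of cell growth and is a known target of WNT and beta-catenin signalling. It lies in 8q24 beside long stretches with few protein-coding genes.

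With 1 library per group, no replicate error could be measured and no p-value was computed. Intervals take each peak as independent and reflect counting error alone, so they are too narrow where peaks lie in groups. The read depth is unknown. The number of copies of each arm was not measured, and densities are not corrected for it. Lengths include any unsequenced stretches, where no peak can be called. No annotation in hg18 coordinates was used, so peaks are identified by position and not assigned to genes.

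The first question was whether the arms differed in the density of SOX9 peaks. 8p carried 1.51 peaks per Mb (exact Poisson 95% interval 1.17 to 1.92) over 45 Mb, and 8q carried 2.17 (1.89 to 2.47) over 101.1 Mb up to the last peak. The density on 8q was therefore 1.43 times that on 8p (exact conditional interval 1.09 to 1.91). The peaks covered 882 bp per Mb of 8p and 1156 bp per Mb of 8q. The choice of boundary did not affect which peaks belonged to which arm over a wide range. The last peak of 8p was at 43114948 to 43115628 (score 4.19) and the first of 8q was at 48219411 to 48220061 (score 4.53), with no SOX9 peak in the 5.10 Mb between them.

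The difference in density was larger among weak peaks than among strong ones. The score is the authors' value for each peak, on a scale no source used here states, and it serves only to rank peaks within the list. Peaks that reached the list median of 7.94 occurred at 0.933 per Mb on 8p (0.673 to 1.26, 42 peaks) and at 0.940 per Mb on 8q (0.760 to 1.15, 95 peaks), a ratio of 1.01 (0.693 to 1.48). Peaks below the median numbered 26 on 8p and 124 on 8q, and their density was 2.12 times as high on 8q (1.38 to 3.38). The intervals of these ratios overlap, and the difference between the ratios was not tested. With peaks that tie at the median counted as weak, the ratios were 1.13 (0.765 to 1.70) for strong and 1.79 (1.203 to 2.75) for weak peaks, a smaller contrast in the same direction. Among the 1000 highest-scoring peaks of the list, 9 lay on 8p and 22 on 8q, a density ratio of 1.09 (0.482 to 2.68). The interval for these strongest peaks is wide and includes the ratio for all peaks. A further 8p peak, at 6679113 to 6679926, tied with the lowest score in that set (39.3) and was left outside it by position in the list alone.

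Scores of 8p peaks ranged from 2.57 to 278 with a median of 9.25 (quartiles 5.89 and 20.1). Scores of 8q peaks ranged from 1.93 to 305 with a median of 7.03 (quartiles 4.92 and 13.9). The ranges of the arms overlapped almost entirely, and 8p had the higher median and the higher quartiles. Of the 8p peaks, 61.8% (49.2 to 73.3%) scored at or above the list median, compared with 43.4% (36.7 to 50.2%) of the 8q peaks and 51.7% of the whole list. The interval of 8p included the share of the whole list and just overlapped that of 8q, whereas the interval of 8q lay below the share of the list. The 8q share was 47.2% (40.1 to 54.4%) with peaks within 500 bp merged. It was 47.4% (39.8 to 55.1%) without the 5 Mb window of 8q that held the most peaks. Both intervals include 51.7%. Ties matter here, because 5 of the 8p peaks and 1 of the 8q peaks had exactly the median score. Counting only peaks strictly above it gave 54.4% on 8p (41.9 to 66.5%) and 42.9% on 8q (36.3 to 49.8%), a smaller gap with intervals that overlapped widely. The list share on this count was 49.82%, just above the upper limit of the 8q interval (49.76%). The share among the 1000 highest scores was 13.2% on 8p (6.23 to 23.6%) and 10.0% on 8q (6.40 to 14.8%), against 13.3% of the list, which lay within the interval of each arm.

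8p peaks were also somewhat wider than those of the whole of 8q, by median and quartiles. The median peak was 467 bp wide on 8p (quartiles 319.5 and 700.5 bp) and 397 bp on 8q (quartiles 290.0 and 672 bp). The arms differed by about as much at the lower as at the upper quartile, and more at the median. Peaks of at least 1000 bp made up 10.3% of 8p (7 peaks, 4.24 to 20.1%) and 9.59% of 8q (21 peaks, 6.03 to 14.3%), against 10.7% of the list. Peaks of exactly 243 bp, the smallest width in the list, were 2 of 68 on 8p (2.94%, 0.358 to 10.2%) and 21 of 219 on 8q (9.59%, 6.03 to 14.3%), against 7.91% of the list. Score and width rose together on both arms, with Spearman's rho of 0.56 across 8p peaks and 0.65 across 8q peaks, against 0.67 across the whole list. These are descriptions across peaks of a single library.

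Peaks were unevenly spread along both arms. Divided into 5 Mb windows, 8p had a median of 4 peaks per window (9 windows) and 8q a median of 7 (21 windows). In total 13 of the 30 windows held 5 peaks or fewer, and 4 windows held 20 or more, with 110 peaks (38.3% of the chromosome) between them. The stretches singled out next were picked for their full windows, so their contrast with the rest of the arm is a description. On 8p the fullest window ran from 35 to 40 Mb and held 22 peaks (Poisson interval 13.8 to 33.3), of which 15 lay between 38 and 39 Mb. The part of 8p from 35 to 45 Mb carried 3 peaks per Mb (2.02 to 4.28), against 1.09 (0.768 to 1.49) on the rest of that arm. On 8q there was a raised stretch from 95 to 105 Mb, with 40 peaks and 4 per Mb (2.86 to 5.45), and a much denser one at the end of the arm.

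**Figure D1:**
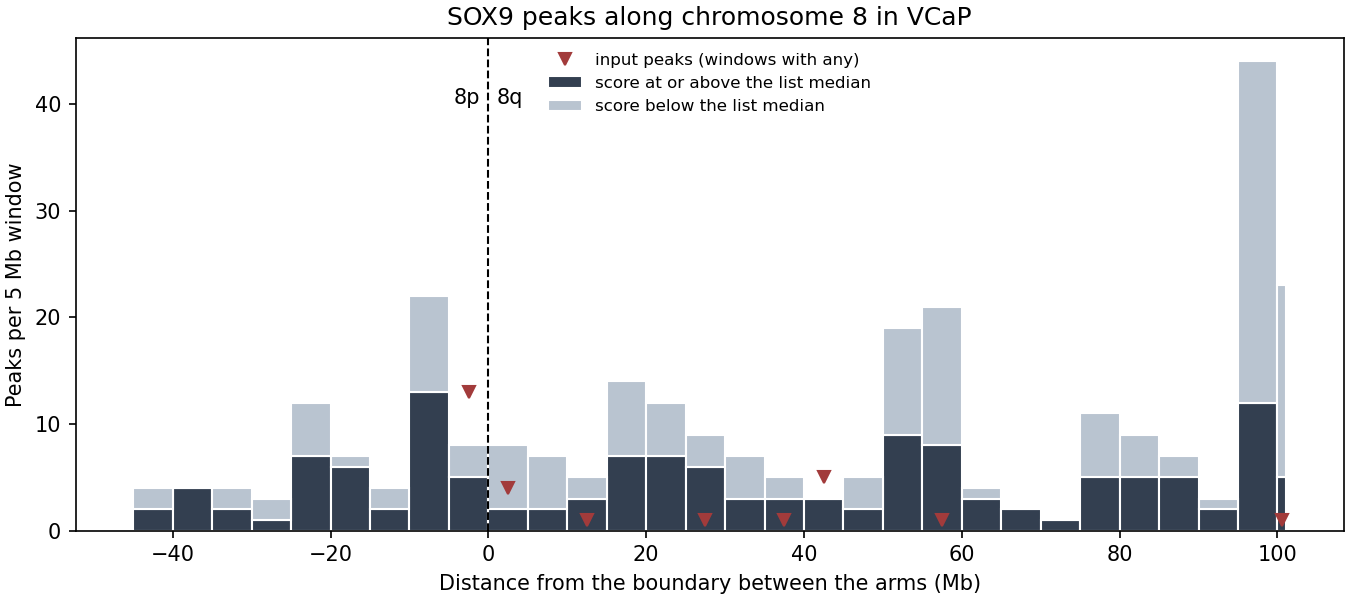
Number of SOX9 peaks in 5 Mb windows along chromosome 8 (y axis) against the distance of the window from the arm boundary in Mb (x axis, 8p negative). Bars are split at the list median score of 7.94, triangles give the number of input peaks in windows that hold any, and the last window is only 1.10 Mb long. The fullest 8q window holds 44 peaks, 32 of them below the median, and the fullest 8p window holds 22.

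The end of 8q stood out from the rest of the chromosome. From 140 Mb to the last peak, a stretch of 6.10 Mb chosen after the window counts had been seen, there were 67 peaks, 23.3% of those on the chromosome. The density was 10.99 per Mb (8.52 to 13.95), against 1.60 (1.36 to 1.88) on the rest of 8q. Of these 67 peaks, 61 lay between 143 and 146 Mb. Without the distal stretch, the density of 8q was 1.06 times that of 8p (0.790 to 1.43). The other 95 Mb of 8q thus resembled the whole of 8p in density within counting error. This comparison takes a dense stretch from 8q alone, and 8p has a dense stretch of its own. With the fullest 5 Mb window left out of each arm the ratio was 1.58 (1.14 to 2.24), and with the fullest 8p window and the whole distal stretch left out it was 1.39 (0.994 to 1.98). The dense stretches of the arms therefore moved the ratio in opposite directions. The opposite end of the chromosome was sparse, with 4 SOX9 peaks in the first 6.10 Mb of 8p (0.656 per Mb, 0.179 to 1.68).

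Most peaks of the distal stretch were weak and narrow. Their median score was 5.32 (quartiles 3.84 and 7.92) and their median width 369 bp, against 8.25 and 406.5 bp on the rest of 8q. On that rest the upper quartile of width was 745.5 bp, and 11.2% of peaks (6.65 to 17.3%) were at least 1000 bp wide. Both values were above those of 8p (700.5 bp and 10.3%), although the median width of 8p was higher. At or above the list median were 17 of 67 peaks (25.4%, 15.5 to 37.5%), compared with 78 of 152 (51.3%, 43.1 to 59.5%) on the rest of 8q. Of the 67, 27 (40.3%, 28.5 to 53.0%) scored below the lower quartile of the list (4.92). The smallest width of 243 bp was shared by 13 of the 67 (19.4%, 10.8 to 30.9%), and by 8 of 152 on the rest of 8q (5.26%, 2.30 to 10.1%). The stretch nevertheless also exceeded the rest of 8q in stronger peaks. Peaks at or above the median occurred at 2.79 per Mb there, 3.40 times the 0.821 per Mb of the rest of 8q (ratio interval 1.88 to 5.79), whereas for peaks below the median the ratio was 10.5 (7.20 to 15.3). It also held the highest-scoring peak of the chromosome.

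**Figure D2:**
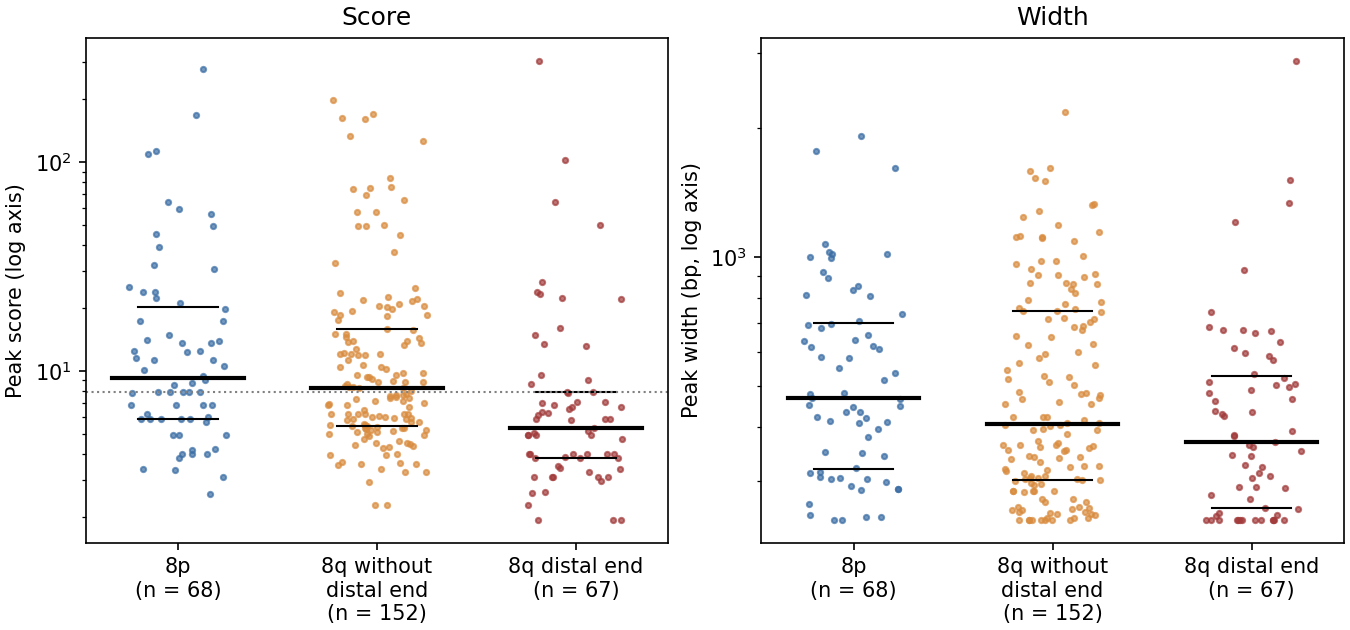
Score (left) and width in bp (right) of every SOX9 peak on 8p, on 8q below 140 Mb and on the distal end of 8q, both on log axes; each point is 1 peak, thick lines are medians, thin lines quartiles, and the dotted line is the list median score of 7.94. The median score falls from 9.25 on 8p to 8.25 on 8q below 140 Mb and 5.32 at the distal end, with wide overlap between the 3 sets.

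The other full stretches had medians on different sides of the list median score, but a difference in strength was not clear. The 8p window from 35 to 40 Mb had a median score of 9.13, and 59.1% of its peaks (36.4 to 79.3%) reached the list median. The 8q stretch from 95 to 105 Mb had a median of 6.92, and 42.5% (27.0 to 59.1%) did. These intervals overlap, and both include the 51.7% of the whole list. The 8p window included 3 of the 1000 highest-scoring peaks (13.6% of its peaks, 2.91 to 34.9%). The 8q stretch included 7 of them (17.5%, 7.34 to 32.8%). The share of the whole list was 13.3%. Of the 4 windows with 20 or more peaks, 3 had a median score below that of the list, and of the 13 windows with 5 or fewer peaks 4 did.

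The strongest peaks of the chromosome were scattered over both arms. The 10 highest scores ranged from 113 to 305, with 3 on 8p and 7 on 8q, and 1 of the 10 lay in the distal stretch. The top score, 305, was that of a 674 bp peak near the end of 8q (145230964 to 145231637), which ranked 19 in the whole list. Second was a 609 bp peak on 8p (11697150 to 11697758) with a score of 278 and rank 31. It stood alone, 454 kb from the previous peak and 959 kb from the next. The third, of 747 bp at 57286393 to 57287139 on 8q, scored 199, and the fourth, of 1528 bp at 73611137 to 73612664, scored 170. Even the fourth scored above 98.7% of the list.

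The remaining members of the strongest 10 were similar in kind. On 8p they were a 1769 bp peak at 38443824 to 38445592, with a score of 168, inside the dense 38 to 39 Mb segment, and a 641 bp peak at 42129133 to 42129773, with a score of 113. On 8q a peak of 2179 bp at 48811798 to 48813976 had a score of 162. It was also the second widest of the chromosome. Within the 95 to 105 Mb stretch were peaks at 96030628 to 96031092 (score 126), 99145678 to 99146582 (score 133) and 103736814 to 103737497 (score 160). The widest peak of the chromosome, 2873 bp at 144582191 to 144585063 on distal 8q, scored 50.02, and the third widest, 1915 bp at 22043247 to 22045161 on 8p, scored 109. Of the 3 widest peaks, only the second was therefore among the 10 strongest, and the third widest ranked 11 by score. Across all peaks of the chromosome width and score rose together (Spearman's rho 0.64).

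The second question was what the list holds around MYC in 8q24. Between 127 and 130 Mb there were 5 SOX9 peaks, a density of 1.67 per Mb (0.541 to 3.89), close to the 1.60 of 8q outside its distal stretch. Chromosome 8 was divided into windows of the same 3 Mb length. Of the 47 others, 14 held more peaks, 5 held as many and 28 held fewer, with a median of 4 and a range of 0 to 42. The window was thus ordinary in its number of peaks. It held no input peak. Of its 5 peaks, 3 scored at or above the list median and 1 was among the 1000 highest, against 51.7% and 13.3% of the whole list. A set of 5 peaks is too small to be told apart from these shares.

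A pair of SOX9 peaks lay at the position of MYC, taken as about 128.82 Mb and known here only to about 10 kb. The first was a 340 bp peak at 128818485 to 128818824 that scored 7.32. The second, of 911 bp at 128819302 to 128820212, scored 8.81. They were 477 bp apart and both fell within 10 kb of the stated position, 1 on each side of the list median in score. Their ranks were 4080 and 3560 among 7547 peaks, so they were peaks of middling strength. On the telomeric side, a 704 bp peak at 128875336 to 128876039 had a score of 19.3, higher than 74.6% of the list. Its centre was 55.7 kb from the stated MYC position. In the RefSeq gene order of GRCh38.p14, the long non-coding RNA gene PVT1 is the next gene after MYC and CASC11 the one before it, but whether any of these peaks lies within a gene was not analysed here.

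The strongest peak of the window was farther from MYC. It was 1237 bp wide, lay at 127637544 to 127638780 on the centromeric side, 1.18 Mb from the MYC position, and scored 44.5, which placed it 31st on the chromosome and 893rd in the list. A weak companion of 339 bp with a score of 2.28 followed after 503 bp (127639284 to 127639622), one of the lowest scores on the chromosome. No SOX9 peak lay in the 1.18 Mb between this pair and the pair at MYC. Beyond the window the nearest peaks were at 126079497 to 126079949 (score 15.8), 2.74 Mb from MYC, and at 131097305 to 131098419 (score 14.9), 2.28 Mb from it. The 5 peaks thus lay at 3 places, of which those at MYC and at 128875336 were 55.1 kb apart.

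**Figure D3:**
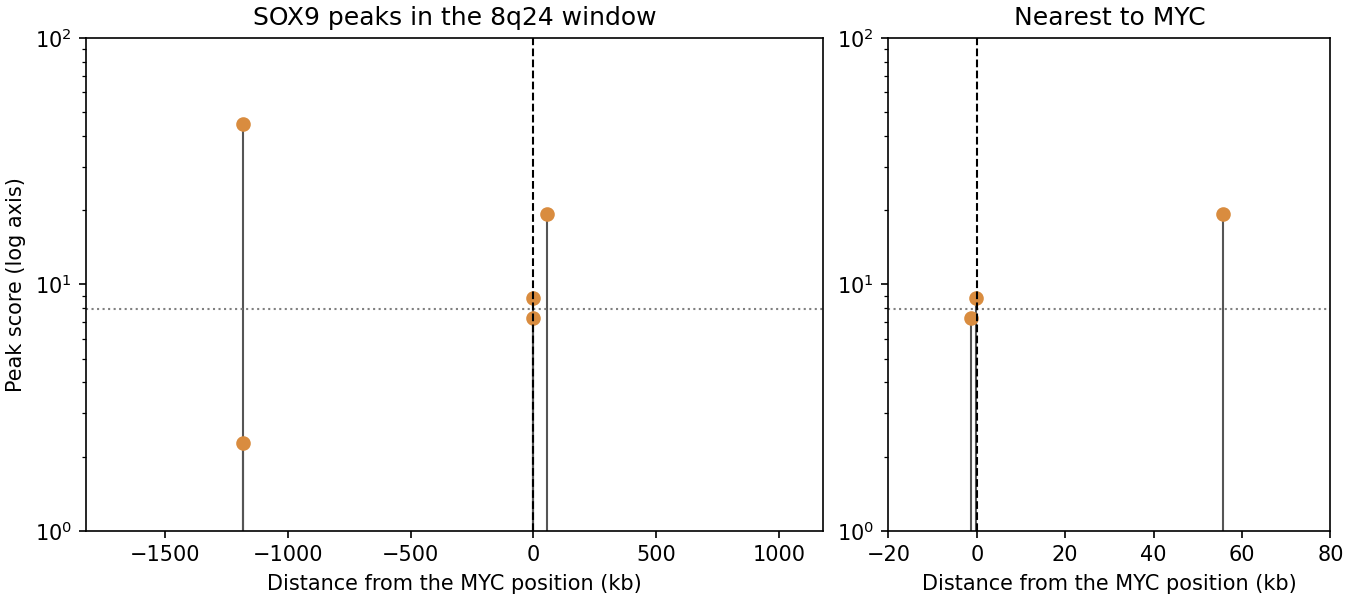
Scores of the 5 SOX9 peaks between 127 and 130 Mb (y axis, log scale) against the distance of the peak centre from the MYC position in kb (x axis, negative towards the centromere), for the whole window (left) and near MYC (right). The dotted line is the list median score of 7.94; the pair at MYC scores 7.32 and 8.81, and the highest peak, at 44.5, lies 1.18 Mb away.

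Taken over the whole arm, neighbouring peaks were spaced somewhat more closely on 8q. The median gap was 154 kb on 8p and 130 kb on 8q, and the lower quartile was 60.5 kb on 8p and 21.1 kb on 8q. Within the distal stretch of 8q the median was 25.5 kb over 66 gaps. These are among the 218 gaps of 8q and lower its values. Gaps on the rest of 8q were not summarised separately, so closer spacing than on 8p is not shown there. Gaps under 1 kb made up 7 of 67 on 8p (10.4%, 4.30 to 20.3%) and 29 of 218 on 8q (13.3%, 9.09 to 18.5%), against 12.7% over all nuclear chromosomes, and the intervals of the arms overlapped widely. Peaks with a neighbour within 1 kb had lower median scores than the others. The medians were 6.11 against 10.9 on 8p and 6.13 against 7.48 on 8q, and these differences were not tested. The pair at MYC is of this kind, but its scores of 7.32 and 8.81 were above the 8q median for such peaks. On the whole chromosome the 68 peaks of this kind had a median score of 6.13 and a median width of 367.5 bp, compared with 7.94 and 435 bp for the 219 without such a neighbour.

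Clusters, meaning runs of at least 3 peaks with gaps of up to 12500 bp, numbered 8, all on 8q. They held 26 peaks, 9.06% of those on the chromosome (6.003 to 12.99%), against 13.6% over all nuclear chromosomes. The distal stretch contained 5 of the 8 and 17 of the 26 peaks. The largest comprised 5 peaks over 21.1 kb (144750430 to 144771493) with scores from 3.11 to 102. The other 7 held 3 peaks each. The highest-scoring of these were at 145713895 to 145721095, with scores up to 23.7, and at 143527793 to 143531699, with scores up to 23.3. When gaps of up to 25000 bp were allowed there were 12 clusters, 2 of them on 8p, so the absence of clusters from 8p held only for the shorter gaps.

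At the other extreme, the longest stretch without a SOX9 peak measured 7.83 Mb and lay on 8q, from 110773313 to 118601914. The next, of 7.001 Mb, was on 8p between 12657193 and 19658642, and the third was the 5.10 Mb across the arm boundary. The input library had no peak in the first and second of these stretches, but 17 in the third. Inside the third, neither list had a peak between 43957980 and 46960735, next to and across the arm boundary. Whether that part is sequenced in hg18 was not examined, so the third stretch is not directly comparable with the other 2.

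Input peaks on chromosome 8 numbered 27 of 401 (6.73%, 4.48 to 9.65%), and they lay elsewhere than the SOX9 peaks. All 13 input peaks of 8p and 4 of the 14 of 8q were between 43 and 47 Mb, next to the arm boundary, where only 2 SOX9 peaks were called, both scoring at most 5.89. Joined across gaps of up to 12500 bp, the input peaks formed 4 regions on 8p and 8 on 8q. The highest-scoring, on the input list's own scale, were at 70764825 to 70765159 (score 75.5), 43950614 to 43950870 (score 63.9) and 43957741 to 43957980 (score 61.9). The distal stretch of 8q, with its 67 SOX9 peaks, held 1 input peak.

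No SOX9 peak of chromosome 8 shared a base with an input peak, 0 of 287 (upper limit of the exact interval 1.28%), against 0.53% of the whole list. A share like that of the list was therefore not excluded at this number of peaks. The nearest approach was a 246 bp SOX9 peak at 82916567 to 82916812 (score 5.90), whose centre lay within 1000 bp of that of an input peak at 82917222 to 82917374. No source used here says if input served as the control when SOX9 peaks were called, a step that can remove overlaps.

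Compared with the other autosomes, chromosome 8 was low in density and near the list in strength. It carried 1.96 peaks per Mb (1.74 to 2.21), against 2.63 (2.57 to 2.69) over the other autosomes, and ranked 13 of 22. Chromosomes 7, 9 and 10, autosomes of similar length, each had more peaks per Mb, whereas X, also of similar length, had fewer (0.571). The value was 2.71 (2.46 to 2.98) for chromosome 7, while chromosome 9 reached 2.78 (2.51 to 3.07). Chromosome 10 was nearer, at 2.33 (2.08 to 2.61). The interval of chromosome 10 overlapped that of chromosome 8, and those of chromosomes 7 and 9 did not. In median score chromosome 8 ranked 19, at 7.55, and 47.7% of its peaks (41.8 to 53.7%) reached the list median, so the share of the whole list lay within its interval. Its median width of 422 bp ranked 9.

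**Figure D4:**
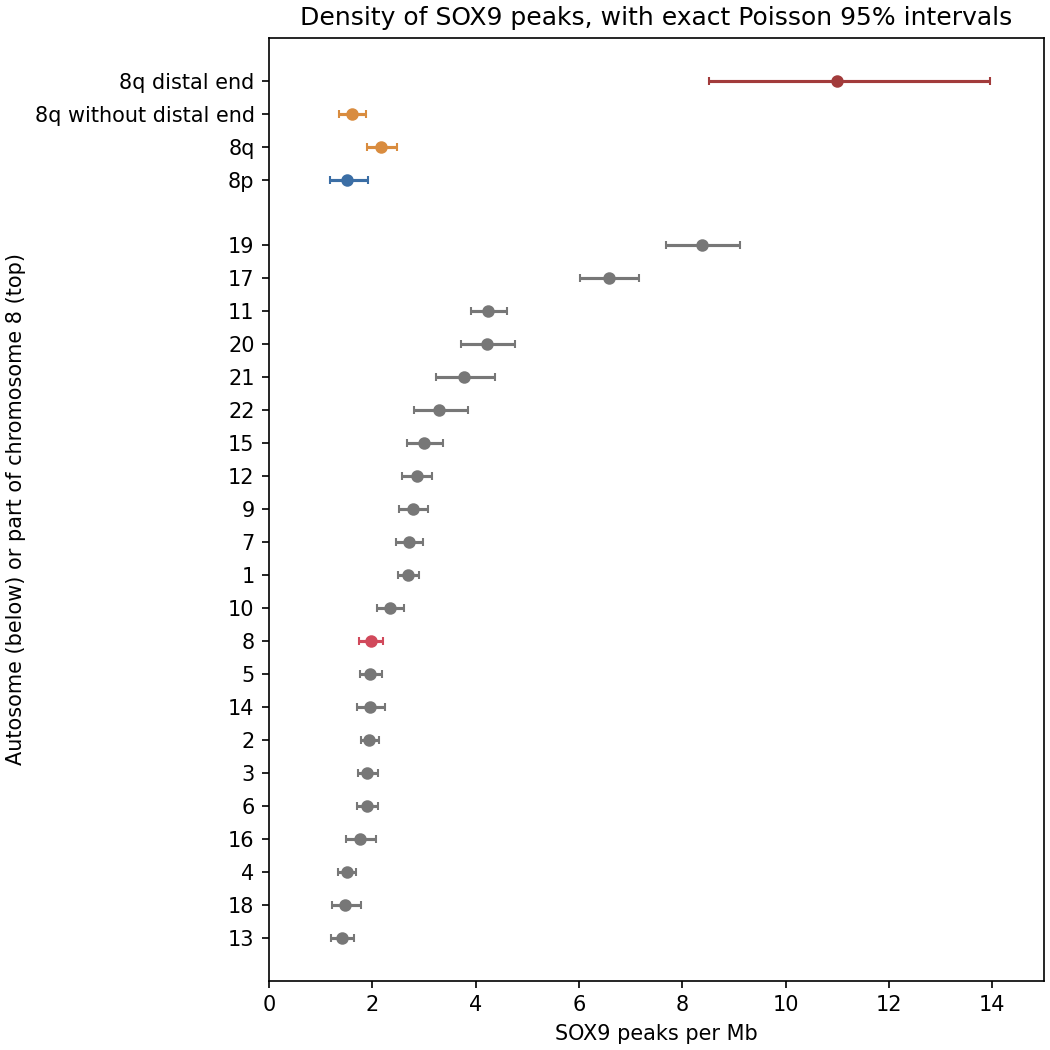
SOX9 peaks per Mb (x axis) on each of the 22 autosomes, from the chromosome start to the last peak of either list, and on parts of chromosome 8 (top rows); bars are exact Poisson 95% intervals. Chromosome 8 sits at 1.96, with 8p at 1.51, 8q at 2.17, 8q without its distal end at 1.60 and the distal end at 10.99.

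The difference between the arms was moderate beside differences within other chromosomes. For each of the 15 other chromosomes longer than 100 Mb, X included, the density beyond 45 Mb was divided by that of the first 45 Mb, a cut that is not the centromere of those chromosomes. This ratio ranged from 0.283 on chromosome 1 to 4.04 on chromosome 14 with a median of 1.09. Chromosome 15 had the second highest value (2.97) and chromosome 11 the next (2.16). Unsequenced stretches were not subtracted from either length, so the ratios need not reflect density over sequenced bases alone. It exceeded the 1.43 of chromosome 8 on 5 of the 15, and differed from 1 by a larger factor in either direction on 8 of them. A dense distal end was not confined to chromosome 8 either. In final stretches of the same 6.10 Mb, counted back from the last peak, the autosomes held a median of 27.5 SOX9 peaks, and chromosome 8 ranked sixth with 67. The 6 fullest ends held 67 to 107 peaks, and the median score was below that of the list in all 6, from 4.78 to 7.81. The same held for 5 of the other 16 ends.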

How the data were processed

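SOX9 chromatin immunoprecipitation and input chromatin of VCaP cells were sequenced on an Illumina Genome Analyzer, 1 library each, per the labels' protocols. Build hg18 and CASAVA 1.8.2 are named in the submitters' processing notes. No source used here gives the aligner, peak caller or threshold. The authors deposited 2 peak lists with chromosome, start, end, name and a score per peak, whose scale no source states. Starts were converted to 1-based positions. SOX9 peaks are named as replicate 2, and other replicates were not analysed here.

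Members and lists were chosen with earlier results of these data known. Densities used the length from the chromosome start to the last peak of either list, 45 Mb for 8p and the rest for 8q. Counts have exact Poisson, shares exact Clopper-Pearson and density ratios exact conditional binomial 95% intervals, for counting error only. Reads amplified by PCR and lacking molecular identifiers cannot be taken as independent molecules. Overlap required 1 shared bp. Peaks named by position were the 10 highest-scoring and 3 widest of chromosome 8, the 3 highest-scoring of each arm, all in the 8q24 window with the nearest beyond it, the 3 largest clusters, the 3 longest empty stretches and the 3 highest-scoring input peaks. The peak tied at the edge of the 1000 highest scores, the peaks beside the arm boundary and the peak nearest to input were named after their values were seen. The counting of overlaps, clusters and merged peaks was tested on simulated data. Alternatives were stricter score limits, merging, joining, stretches left out and other window lengths, overlaps and cluster gaps. Software was scipy 1.17.1, pandas 2.3.3, numpy 2.4.6 and matplotlib 3.10.9 under Python 3.11.15.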

Additional observations from a re-analysis of the deposited data

How the results depend on the processing

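Alternatives gave 76 values. Of these, 57 lay inside the 95% interval of the value they replace (counts: within 1.5 times), 19 moved further and none reversed. A reversal could be recorded only for the density ratio of the arms. Several of the 57 could not change. No SOX9 peak of chromosome 8 overlapped input, and leaving out a window of 1 arm cannot alter shares of the other. The tally therefore does not measure how robust the results are. The density ratio of 8q to 8p was 1.01 at or above the list median score, and, in alternatives added after the data had been seen, 1.06 without 8q from 140 Mb on and 2.12 below the median. Its interval also included 1 when peaks up to 12500 bp apart were joined (1.28, 0.946 to 1.74) or the fullest 8q window was left out (1.21, 0.906 to 1.62). With only the fullest 8p window left out, the ratio rose to 1.88 (1.37 to 2.65). Without the distal stretch, 51.3% of 8q peaks reached the list median and chromosome 8 held 2.94% of the list. It held 3.10% of the 1000 highest-scoring peaks. Among 8q peaks at or above the median, 23.2% were in the 1000 highest and 22.1% were at least 1000 bp wide, shares that rise by construction; merging within 500 bp gave 15.2% for width. The 8q24 window held 3 peaks at or above the median, 1 among the 1000 highest and 3 after joining within 12500 bp. Clusters numbered 5 with gaps up to 5000 bp, 1 at or above the median score and 3 after merging within 500 bp. Centres within 1000 bp gave 1 SOX9 peak beside input. The fullest complete window had 8.80 peaks per Mb at 5 Mb, 26.0 at 1 Mb, 24 at 2 Mb and 2.60 at 10 Mb, where the incomplete last window does not count. No paired analysis was possible because each group has 1 library. The read depth is unknown, so no limit of detection can be set.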
